A study of Mus musculus with 38 samples.

Results

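Serpins of clades A and B are encoded in large tandem gene clusters, and their occupancy by LAP2β and lamin B1, proteins of the nuclear periphery, was followed here in mouse pluripotent cells. All protein-coding genes whose symbols begin with Serpina or Serpinb and a number were taken, which gave 52 genes of 78202 in the gene tables. 24 of them are Serpina and 28 are Serpinb genes. A further 7 genes with such symbols were not protein-coding and were left out. The 52 genes lie at 4 loci of GRCm39 (GENCODE M39 coordinates). The chromosome 1 locus (chr1:106788875-107539280) holds 12 Serpinb genes, the chromosome 12 locus (chr12:103580578-104380597) holds 23 Serpina genes and the chromosome 13 locus (chr13:33026042-34186812) holds 16 Serpinb genes. Serpina7 lies by itself on the X chromosome (chrX:137979979-137985992).

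Serpins are protease inhibitors that work once only: the protease cuts an exposed loop of the serpin, the reactive centre loop, and is then trapped in a covalent complex. Clade A serpins are mostly secreted plasma proteins made by the liver, whereas clade B serpins lack a classical secretion signal and act mainly inside cells of epithelia and blood. A few members, such as the hormone carriers, inhibit no protease. Both clades expanded by repeated tandem duplication in rodents. Tandem clusters of genes that are silent in pluripotent cells are often found in lamina-associated chromatin, the part of the genome that contacts the nuclear lamina. LAP2β is an inner nuclear membrane protein that binds lamins and chromatin, and the lamin B receptor (LBR) is a second membrane protein that tethers heterochromatin to the nuclear envelope.

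LAP2B was profiled by CUT&RUN, which cuts and sequences DNA bound by an antibody's target, in 4 genotypes of mouse embryonic stem cells, in the naive state and after conversion to epiblast-like cells (EpiLCs). Wild-type cells (WT), cells without LBR (LBRKO), cells without any lamin (TKO) and cells without lamins and LBR (QKO) were each represented by 3 libraries per stage. LMNB1 and the IGG control, a secondary antibody in place of a primary one, were profiled in WT cells of both stages with 3 libraries per group. Naive cells were grown in 2i with LIF, EpiLCs were grown with FGF and Activin A, and both were collected at 48 h. LBRKO cells were made from the WT line by CRISPR, with frameshift deletions in Lbr, and QKO cells from the TKO line, with 1 frameshift and 1 in-frame deletion in Lbr described for the clone. The TKO line came from a littermate of the WT line, and QKO was a single surviving clone. The methods describe gained copies of chromosome 6 or 8 and loss of Y in the WT and TKO lines, and the serpin loci lie on other chromosomes. DNA coverage does not measure the removed proteins or the marker genes of a stage, so in these libraries genotypes and stages rest on the labels. Outside these libraries, the paper reports PCR for the lamin knockout and western blots for LBR loss. It also reports Otx2 expression and lower Nanog in surviving EpiLCs of each genotype. In bulk libraries a lower signal in every cell and a loss in some of the cells cannot be told apart.

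Some neighbouring serpins are close copies of each other, for which reads are harder to assign. Coding sequences of 15 members matched another member at over 90%, with the closest pair, Serpinb9h and Serpinb9g, at 99.1%. In the 5 copies Serpina1a to Serpina1e, which encode forms of α1-antitrypsin, 86 of 1239 coding positions varied. The variation was densest in a 75-base window of the last coding exon (coding positions 1099 to 1173), where 19 positions varied, or 25.3%, against 5.76% of the positions outside it. The window is shown because it is where the copies are easiest to tell apart. Capitals mark the positions that vary among the copies, read 5′ to 3′ on the coding (minus) strand of chromosome 12 in GRCm39.
Serpina1a: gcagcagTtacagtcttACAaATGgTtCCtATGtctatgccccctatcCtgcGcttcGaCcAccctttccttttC
Serpina1b: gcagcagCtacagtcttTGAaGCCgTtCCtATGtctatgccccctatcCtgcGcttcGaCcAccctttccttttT
Serpina1c: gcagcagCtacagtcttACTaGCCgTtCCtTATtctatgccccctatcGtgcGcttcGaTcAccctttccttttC
Serpina1d: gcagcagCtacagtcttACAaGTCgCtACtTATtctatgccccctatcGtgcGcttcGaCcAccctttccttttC
Serpina1e: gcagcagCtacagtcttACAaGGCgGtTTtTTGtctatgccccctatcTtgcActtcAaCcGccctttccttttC

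The windows lie at chr12:103820003-103820077 (Serpina1a), chr12:103694570-103694644 (Serpina1b), chr12:103861340-103861414 (Serpina1c), chr12:103730008-103730082 (Serpina1d) and chr12:103913346-103913420 (Serpina1e). Over the whole coding sequence Serpina1c differed from Serpina1a at 19 positions, Serpina1b at 37, Serpina1d at 42 and Serpina1e at 43. Across the gene bodies, a median of 4.65% of the 50-base windows of a member recurred elsewhere in the genome. The share exceeded 20% in 13 members and was highest in Serpinb9h (83.6%), Serpinb9g (70.5%) and Serpina1c (55.2%). Serpinb9h (chr13:33579744-33589268) was listed at 0 in every library of all 3 antibodies, and the other 51 members passed the filter on low values. The loci also differed in base composition, with a median GC content of 38.5% at the chromosome 1 locus, 47.7% at the chromosome 12 locus and 41.6% at the chromosome 13 locus, against 45.2% over protein-coding genes.

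Summed over the gene table, libraries held between 12028659 and 45689196 reads, where a read in a bin shared by genes counts for each gene. A library's median member held 88 to 352 reads. Single members ranged from 8 reads in a library for Serpina7 to 3233 for Serpinb3b. Values are given on 2 scales. The relative signal is a gene's coverage divided by the median gene of the same library and shows how the gene ranks against the rest of that genome. The spike-in signal is the deposited value, RPKM times a factor from added yeast DNA. RPKM is already divided by sequencing depth, so the deposited value falls with depth as well and is not a plain amount of bound DNA. Counts are therefore also given with each deposited value multiplied by its library's reads over the gene table. This is called below the factor applied directly to reads. Reads over the gene table stand in for sequencing depth there and leave out reads between genes. The step from 1 kb bins to genes is not described, but for most members the values behave as sums over the bins of the gene model, so levels are compared between genes per bin only. Changes are log2 differences with standard errors (SE), and adjusted p-values come from limma with Benjamini-Hochberg adjustment over 70381 genes. A gene is called changed at an adjusted p under 0.05. Where genes are counted as having fallen or risen, they were called lower or higher, and genes not counted may still lie below or above 0.

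In WT naive cells the serpin clusters ranked above most genes for both lamina proteins and low for IGG by level per bin, a rank that depends on how levels are compared between genes. The median member stood at percentile 71.7 of all genes for LAP2B level per bin and at percentile 73.2 for LMNB1, against 28.4 for IGG. At the chromosome 1 locus the medians were 73.6 for LAP2B, 81.2 for LMNB1 and 12.5 for IGG, and at the chromosome 13 locus they were 76.1, 77.4 and 33.5. At the chromosome 12 locus they were 66.6, 54.6 and 38.4. Gene models of several members reach far beyond their RefSeq extent (17.4 times for Serpinb3b, 10.2 times for Serpina1b), which lowers or raises a level per bin. Per kb of gene length instead of per bin, the median member ranked near the middle of all genes, at percentile 53.8 for LAP2B and 59.2 for LMNB1. The ratio of an antibody to IGG over the same gene does not depend on that extent and was added after the data had been seen.

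By this ratio the members held 1.65 times the relative IGG signal for LAP2B (median, percentile 81.1 of all genes) and 1.77 times for LMNB1 (percentile 78.5). The chromosome 1 genes led, with a median ratio of 1.85 for LAP2B and 2.40 for LMNB1, and all 12 of them lay above the 75th percentile of genes for LMNB1. Chromosome 13 followed with 1.75 and 1.95, and 14 of its 15 measured genes did so. The Serpina genes on chromosome 12 had a median of 1.45 for LAP2B but 1.22 for LMNB1, and 1 of 23 lay above the 75th percentile for LMNB1. Serpina7 on the X chromosome had ratios of 1.37 and 2.06.

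**Figure D1:**
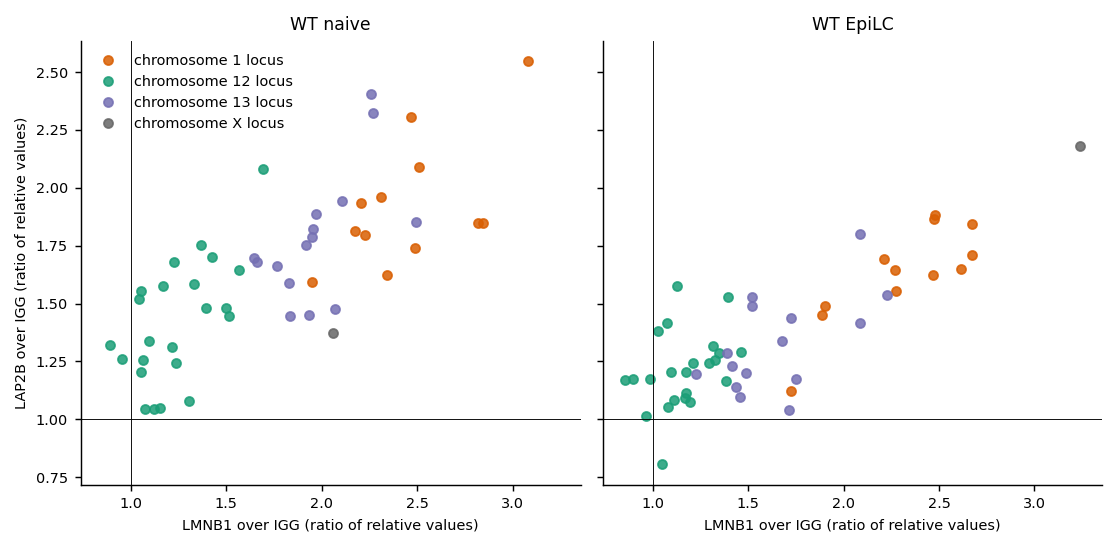
Each point is a member gene in WT cells, with its LAP2B signal over IGG on one axis and its LMNB1 signal over IGG on the other (ratios of mean relative signal, n = 3 libraries each), coloured by locus, in a panel for naive cells and a panel for EpiLCs. In naive cells the chromosome 1 genes reach the highest values of both ratios, up to 2.55 and 3.08 for Serpinb3a, and the LMNB1 ratios of the chromosome 12 genes run from 0.891 to 1.69.

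Single members spread widely around these medians. Serpinb3a (chr1:106973317-106980033), a mouse homologue of squamous cell carcinoma antigen that inhibits cathepsins, had the highest naive LAP2B level per bin at its locus (percentile 87.6), with relative LAP2B of 3, 3.5 and 2.5 in the 3 libraries. Its LMNB1 values were 4.78, 2.57 and 3.53 and its IGG values were 0.75, 1.06 and 1.72, so that no IGG library reached a library of either protein. Serpina6 (chr12:103611821-103623752), corticosteroid-binding globulin, had the lowest LAP2B ratio to IGG in naive cells, at 1.04. Serpina5, the protein C inhibitor, had the lowest LMNB1 ratio, at 0.891.

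At the other loci the extremes of LAP2B level per bin were Serpina3i (percentile 96.9, values 5.78, 5.93 and 4.25) and Serpina3c (percentile 12.6, values 3.85, 4.66 and 2.85) on chromosome 12, both of the antichymotrypsin-like Serpina3 family. On chromosome 13 they were Serpinb9 (percentile 96.2, values 7.15, 7.8 and 7.88), an inhibitor of granzyme B that protects immune cells from their own granules, and Serpinb6b (percentile 0.674, values 4.17, 5.61 and 5.04). The models of Serpina3c and Serpinb6b are 4.37 and 4.03 times their RefSeq length, and their IGG levels per bin were low too, at 0.075 and 0.0324 against a median of 0.18 over the members. Their low ranks therefore rest on the assumed extents, and their LAP2B ratios to IGG were 1.58 and 1.68. Serpinb2 (chr1:107428593-107463208), plasminogen activator inhibitor 2, had the lowest level per bin on chromosome 1 (percentile 33.1, values 5.71, 5.89 and 6.06). This rank depends on the assumed extent too, since the Serpinb2 model is 1.4 times its RefSeq length. By the LAP2B ratio to IGG, Serpinb2 was at 1.62 (percentile 80.3), and Serpinb5 was lowest on chromosome 1, at 1.59.

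Loss of LBR, of the lamins or of both was then compared with WT in naive cells, to ask which tethers LAP2B occupancy over the serpins depends on. Relative LAP2B signal over the clusters fell in all 3 mutants, and fell furthest in QKO. In LBRKO 43 of 51 members were called lower, against 27.3% of all genes tested. The median change of the members was -0.80 (range -1.67 to -0.15) against 0.05 over all genes. In TKO 44 of 51 fell, against 27.4% of all genes, with a median of -0.87 (range -1.71 to -0.15) against -0.10. In QKO all 51 measured members fell, against 41.9% of all genes, with a median of -1.60 (range -2.61 to -0.74) against -0.21. No member was called higher, against 28.9%, 21.8% and 33.4% of all genes in LBRKO, TKO and QKO. The median member dropped from percentile 71.7 of LAP2B level per bin in WT to percentile 24.7 with LBRKO, 28.7 with TKO and 18.2 with QKO.

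The 3 LBRKO libraries all lay below the 3 WT libraries for 42 members (28.2% of all genes), the TKO libraries for 47 (29.1%) and the QKO libraries for 51 (41.5%). Scaling each library to its mean gene instead of its median moved the median of all genes by 0.29 in TKO and 0.24 in QKO, and the members' median relative to all genes was then -0.74 instead of -0.77 in TKO and -1.37 instead of -1.39 in QKO. Among the 39 members with few recurring windows, 32 fell in LBRKO, 34 in TKO and 39 in QKO.

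**Figure D2:**
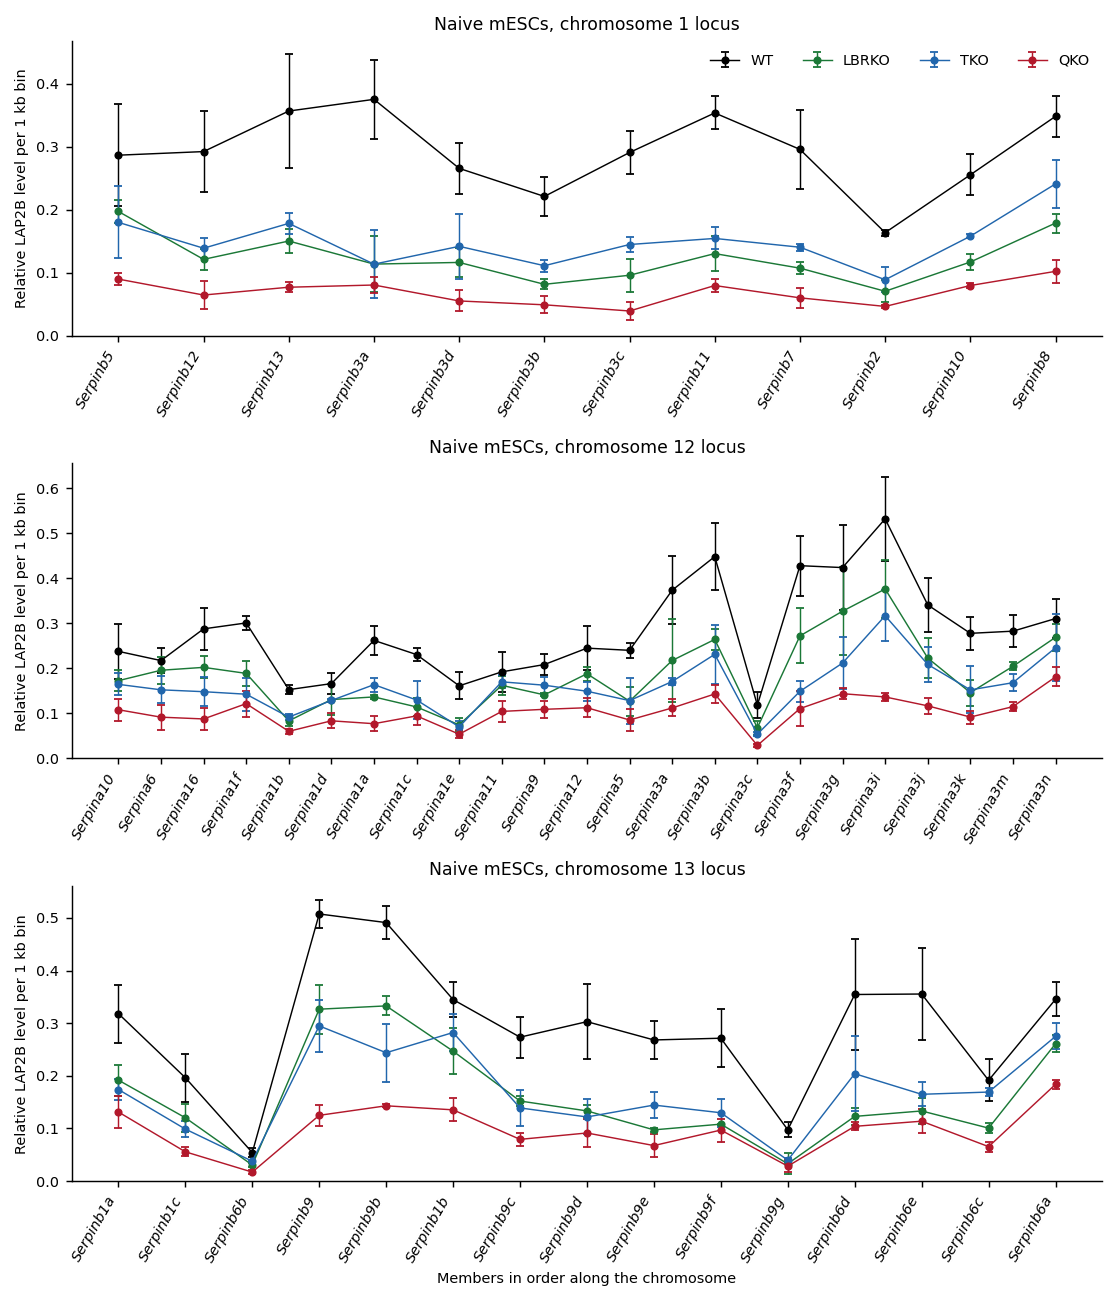
Relative LAP2B signal per 1 kb bin in naive cells (mean ± SD, n = 3 libraries) for each member in its order along the chromosome 1, 12 and 13 loci, with WT, LBRKO, TKO and QKO as separate points. For each measured member QKO has the lowest mean and WT the highest.

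The chromosome 1 locus had the largest median falls. Its 12 genes fell in every mutant, with LBRKO, TKO and QKO medians of -1.22, -0.95 and -2.08. The medians at the chromosome 13 locus were -0.80, -0.86 and -1.61, with 15, 13 and 15 of 15 genes called. The chromosome 12 genes had the smallest medians, with medians of -0.59, -0.74 and -1.40 and with 16, 19 and 23 of 23 called. Differences between loci were not tested, since genes of a locus share their neighbourhood and are not replicates.

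Within the chromosome 1 locus the Serpinb3 family, inhibitors of cathepsins, held the largest falls in LBRKO, with 4 of 4 called and a median of -1.47. Serpinb3a fell from the WT values given above to 1.27, 0.902 and 0.554 in LBRKO (log2 change -1.67 ± 0.26 SE, adjusted p = 4.08e-07) and to 0.974, 0.45 and 1.3 in TKO (log2 change -1.71 ± 0.26 SE, adjusted p = 4.01e-07). None of these 6 mutant libraries reached the lowest WT library. In QKO its values were 0.756, 0.629 and 0.544 (log2 change -2.06 ± 0.26 SE, adjusted p = 9.63e-10), and no fall from TKO to QKO was called (log2 change -0.35 ± 0.26 SE, adjusted p = 0.269).

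For Serpinb3c (chr1:107198930-107206101) the QKO libraries also lay below those of TKO. Its relative LAP2B was 2.81, 2.77 and 2.27 (WT), 1.01, 0.59 and 0.988 (LBRKO) and 1.24, 1.25 and 1.42 (TKO). In QKO it was 0.267, 0.495 and 0.294, the largest fall of any member (log2 change -2.61 ± 0.24 SE, adjusted p = 6.63e-14). No library of any mutant overlapped WT, and LBRKO (log2 change -1.52 ± 0.24 SE, adjusted p = 6.10e-07) and TKO (log2 change -0.95 ± 0.24 SE, adjusted p = 0.00112) were called too. Serpinb3c shares bins with Serpinb3b, which went from 27.8, 31.7 and 24.1 (WT) to 5.09, 8.11 and 5.29 in QKO (log2 change -2.18 ± 0.13 SE, adjusted p = 1.65e-21), so these are not independent measurements. By the gene models, bins are also shared by Serpinb2 and Serpinb10, Serpina1b and Serpina1d, Serpina3k and Serpina3m, and Serpinb1c and Serpinb6b. Both genes of each pair enter the counts.

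Serpinb7 (chr1:107327385-107380419), known as megsin, fell to a similar degree and with higher counts. Its values were 16.1, 19.2 and 12.5 (WT), 6.38, 5.33 and 5.64 (LBRKO), 7.62, 7.28 and 7.84 (TKO) and 2.82, 4.22 and 2.68 (QKO). The 4 genotypes did not overlap, with LBRKO below TKO, and the fall in QKO was the second largest of the members (log2 change -2.27 ± 0.14 SE, adjusted p = 2.77e-20). Serpinb2 went from 5.71, 5.89 and 6.06 (WT) to 3, 2.79 and 1.82 (LBRKO), 3.26, 2.45 and 3.87 (TKO) and 1.74, 1.63 and 1.63 in QKO (log2 change -1.76 ± 0.18 SE, adjusted p = 8.36e-13). Serpinb5 (chr1:106788875-106811078), the non-inhibitory serpin maspin, lost less, with 6.12, 9.09 and 5.4 (WT), 5.21, 4.59 and 4.39 (LBRKO), 4.89, 2.75 and 5.3 (TKO) and 2.1, 2.42 and 1.94 (QKO). All mutant libraries of Serpinb5 lay below WT, and its changes were -0.50 ± 0.18, -0.68 ± 0.18 and -1.60 ± 0.18 (SE), with adjusted p of 0.0175, 0.00174 and 3.47e-11.

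On chromosome 12 every Serpina gene fell in QKO, and fewer were called in LBRKO and TKO. All 5 α1-antitrypsin copies fell in QKO (median -1.33) and 4 of 5 in LBRKO and in TKO, where Serpina1d was not called. Serpina1a had 3.88, 3.98 and 3.15 (WT), 1.98, 1.89 and 1.87 (LBRKO), 2.43, 2.4 and 2.04 (TKO) and 0.889, 1.01 and 1.34 (QKO). WT stood above every mutant library, and QKO below every other library, with a change of log2 change -1.69 ± 0.20 SE, adjusted p = 1.31e-10 in QKO.

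The 10 genes of the Serpina3 family fell by a median of 1.55 on the log2 scale in QKO, with 10 of 10 called. The family had 8 of 10 genes called in LBRKO (median -0.61) and 9 of 10 in TKO (median -0.91), and Serpina3n, an inhibitor of granzyme B and elastase, was called in neither. Serpina3f had the largest fall of the family in TKO, from 2.82, 3.82 and 3.63 (WT) to 1.38, 1 and 1.19 (log2 change -1.45 ± 0.22 SE, adjusted p = 4.43e-07), and had 0.667, 1.24 and 0.75 (QKO). Serpina3m (chr12:104304745-104361078) had 15.9, 18.7 and 14.6 (WT), 11.8, 12.4 and 11.4 (LBRKO), 9.2, 9.03 and 11 (TKO) and 6.22, 7.26 and 6.53 (QKO). Its 4 genotypes followed the order WT, LBRKO, TKO and QKO without overlap, with changes of -0.46 ± 0.12, -0.74 ± 0.12 and -1.28 ± 0.12 (SE) from WT. The Serpina3m model is 7.93 times its RefSeq length and shares bins with Serpina3k, so it is not measured independently of that gene. In QKO, Serpina3i was at 1.47, 1.33 and 1.29 (log2 change -1.87 ± 0.20 SE, adjusted p = 1.00e-11) and Serpina3c at 0.889, 1.07 and 0.809 (log2 change -1.91 ± 0.21 SE, adjusted p = 9.15e-12).

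Neither of the hormone carriers was called in LBRKO. Serpina6 had 3.22, 2.75 and 2.5 (WT) and 2.7, 2.84 and 2.1 (LBRKO), which overlap (log2 change -0.15 ± 0.20 SE, adjusted p = 0.541). In TKO it had 1.72, 2.42 and 1.79 (log2 change -0.50 ± 0.20 SE, adjusted p = 0.0344) and in QKO 1.12, 1.58 and 0.868 (log2 change -1.21 ± 0.20 SE, adjusted p = 4.59e-07). Serpina7, thyroxine-binding globulin, was measured on few reads, with 0.958, 0.5 and 1 (WT), 0.702, 0.328 and 0.494 (LBRKO) and 0.763, 0.975 and 0.224 (TKO). These 3 genotypes overlapped, whereas QKO at 0.322, 0.21 and 0.118 lay below all WT libraries (log2 change -1.54 ± 0.36 SE, adjusted p = 1.63e-04). Besides these, Serpina11, Serpina12, Serpina16, Serpina1d, Serpina3g and Serpina3n were not called in LBRKO.

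On chromosome 13 most of the intracellular inhibitors fell in each mutant. All 7 measured Serpinb9 genes, relatives of the granzyme B inhibitor, fell in each mutant, with LBRKO, TKO and QKO medians of -1.11, -1.01 and -1.68. Serpinb9 (chr13:33187233-33201940) itself dropped from the WT values above to 5.62, 4.21 and 4.87 (LBRKO), 5.03, 3.6 and 4.64 (TKO) and 2.07, 2.03 and 1.53 (QKO). All 9 mutant libraries lay below WT, and the QKO libraries reached less than any library of the other genotypes (log2 change -1.98 ± 0.17 SE, adjusted p = 6.43e-15). Serpinb9g, a near-identical copy for which read assignment is uncertain, went from 1.24, 1.3 and 0.981 (WT) to 0.24, 0.672 and 0.277 in LBRKO (log2 change -1.45 ± 0.30 SE, adjusted p = 6.00e-05). Serpinb9d went from 3.96, 4.27 and 2.67 (WT) to 1.33, 1.15 and 1.91 in TKO (log2 change -1.26 ± 0.22 SE, adjusted p = 6.67e-06).

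Of the Serpinb1 genes, which include the leukocyte elastase inhibitor Serpinb1a, 3 of 3 fell in LBRKO and QKO and 2 of 3 in TKO. Serpinb1a had 3.82, 2.84 and 2.88 (WT), 2.25, 1.82 and 1.69 (LBRKO), 1.57, 1.7 and 1.96 (TKO) and 0.967, 1.56 and 1.41 in QKO (log2 change -1.23 ± 0.20 SE, adjusted p = 5.14e-07), with no mutant library as high as WT. Serpinb6a, an inhibitor of cathepsin G, (chr13:34100229-34186812) had the smallest fall in QKO of the members named with values here. Its values were 29.9, 32.9 and 27.3 (WT), 23.7, 21.1 and 23.3 (LBRKO), 25.8, 21.6 and 24.4 (TKO) and 15.1, 16.4 and 16.5 (QKO). WT exceeded every mutant library, and the changes were -0.40 ± 0.10, -0.33 ± 0.10 and -0.90 ± 0.10 (SE). Serpinb6b, of the same family, had 1.48, 1.91 and 1.29 in QKO (log2 change -1.61 ± 0.18 SE, adjusted p = 2.39e-11).

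On the spike-in scale the TKO and QKO falls were larger, over the members and over all genes alike, and fewer members were called in LBRKO. In naive QKO all 51 members fell, where 65.1% of all genes were called lower, with a median of -2.75 (range -3.55 to -1.89) against -1.23 over all genes. In TKO all 51 fell as well, against 47.2% of all genes, with a median of -1.45 against -0.64 over all genes. In LBRKO 23 fell, against 17.5% of all genes, with a median of -0.63 against 0.22 over all genes. The called genes were 11 of 12 on chromosome 1, 5 of 23 on chromosome 12 and 7 of 15 on chromosome 13. With the factor applied directly to reads the QKO, TKO and LBRKO counts were 51, 51 and 13, against 58.2%, 60.4% and 9.28% of all genes called lower. The medians were -2.38, -1.65 and -0.20, against -0.90, -0.81 and 0.62 over all genes. On the deposited values the LBRKO count was 14 without WT naive replicate 2. That library had the highest spike-in values of the naive WT libraries for the members plotted by library.

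Serpinb3c showed the largest loss on this scale, from 5.94, 7.96 and 5.38 (WT) to 2.32, 1.66 and 3.22 (LBRKO), 1.56, 2.62 and 2.11 (TKO) and 0.291, 0.457 and 0.316 in QKO (log2 change -3.55 ± 0.33 SE, adjusted p = 2.70e-26). Serpinb9 had 15.1, 22.4 and 18.7 (WT), 12.9, 11.8 and 15.9 (LBRKO), 6.33, 7.54 and 6.9 (TKO) and 2.25, 1.87 and 1.65 in QKO (log2 change -3.14 ± 0.27 SE, adjusted p = 3.15e-29). For both genes TKO and QKO lay below WT without overlap, and for Serpinb9 the fall in LBRKO did not pass (log2 change -0.45 ± 0.27 SE, adjusted p = 0.161). Serpina6 had 6.82, 7.89 and 5.93 (WT) and 6.22, 7.97 and 6.84 (LBRKO), which overlap, and 1.22, 1.46 and 0.933 in QKO (log2 change -2.33 ± 0.29 SE, adjusted p = 1.28e-14).

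**Figure D3:**
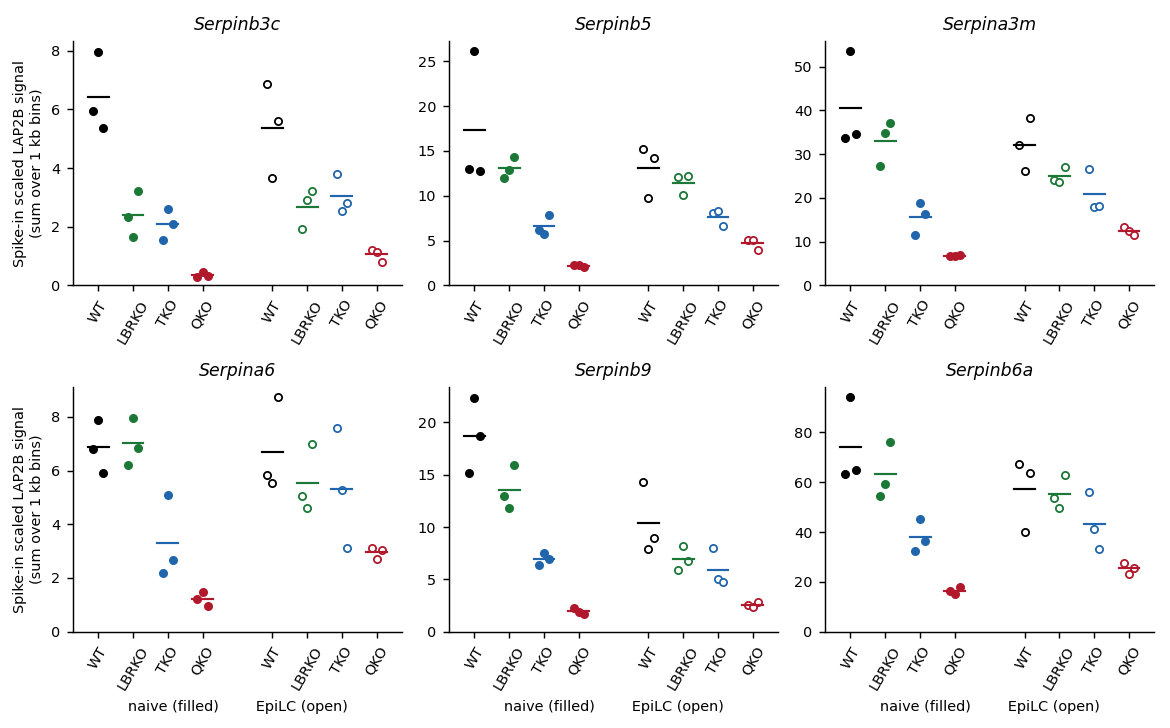
Spike-in scaled LAP2B signal in each library for Serpinb3c, Serpinb5, Serpina3m, Serpina6, Serpinb9 and Serpinb6a, by genotype and stage, with a line at the mean of 3 libraries. Naive QKO libraries lie below all naive WT libraries in each panel, and naive TKO libraries lie between them.

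QKO and TKO cells share the loss of lamins, so the step from TKO to QKO isolates the loss of LBR on that background, within the limit that QKO is 1 clone. In naive cells 38 of 51 members fell by this step on the relative scale, where 27% of all genes were called lower, with a median of -0.71 (range -1.66 to -0.20) against -0.06 over all genes. The called genes were 11 of 12 on chromosome 1 (median -1.13), 15 of 23 on chromosome 12 (-0.59), 11 of 15 on chromosome 13 (-0.73) and Serpina7 (-1.13). Serpinb3c fell most (log2 change -1.66 ± 0.24 SE, adjusted p = 9.09e-08).

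Serpinb6c on chromosome 13 was among the 7 members not called in TKO, and it was called in this step. It had 5.65, 6.66 and 4.35 (WT) and 4.71, 4.88 and 5.13 (TKO), which overlap (log2 change -0.15 ± 0.18 SE, adjusted p = 0.491), and 1.61, 2.16 and 1.93 (QKO). All QKO libraries lay far below TKO (log2 change -1.33 ± 0.18 SE, adjusted p = 1.26e-08). Serpinb7 and Serpinb9 also fell from TKO to QKO, by 1.23 ± 0.14 and 1.19 ± 0.17 (SE) on the log2 scale. In EpiLCs limma called no member from TKO to QKO, where 0.270% of all genes were called lower. The median was -0.19 (range -0.83 to 0.44), 12 members had an unadjusted p under 0.05 (13.1% of all genes), edgeR on the recovered reads called 1 (0.311% of all genes), and limma on the 2 groups alone called 7 (3.42% of all genes called lower). The members' median relative LAP2B level per bin in EpiLCs was 0.148 in TKO and 0.123 in QKO, against 0.145 for IGG in WT EpiLCs. IGG was not profiled in the mutants, and whether the low TKO level limited this step was not tested.

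In EpiLCs fewer members were called against WT and the median changes were smaller. In LBRKO 32 of 51 members fell on the relative scale, where 10% of all genes were called lower, with a median of -0.65 (range -1.09 to 0.22) against 0.01. In TKO 14 fell, against 9.90% of all genes, with a median of -0.31 (range -0.99 to 0.44) against 0.05. In QKO 27 fell, against 17.7% of all genes, with a median of -0.50 (range -1.32 to 0.09) against 0.03. No member was called higher, against 13.3%, 8.69% and 18.3% of all genes. The TKO count rests on single libraries, since it was 7, 6 or 9 without TKO EpiLC replicate 1, 2 or 3, 7 or 8 without WT EpiLC replicate 1 or 2, and 8 with libraries scaled to their mean gene.

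The chromosome 1 locus again had the largest median falls, with 10 of 12 called in LBRKO (median -0.86), 9 of 12 in TKO (-0.55) and 12 of 12 in QKO (-0.91). On chromosome 12 the counts were 8, 1 and 5 of 23, with medians of -0.43, -0.15 and -0.36, and the gene called in TKO was Serpina3m. On chromosome 13 they were 14, 4 and 10 of 15, with medians of -0.77, -0.31 and -0.65. All 7 Serpinb9 genes and all 3 Serpinb1 genes fell in LBRKO EpiLCs, with medians of -0.87 and -0.77, while the medians in TKO were -0.37 (3 of 7 called) and -0.18 (0 of 3).

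At single chromosome 1 genes the falls in EpiLCs exceeded 1 on the log2 scale. Serpinb11, known as epipin, went from 4.52, 5.2 and 4.38 in WT EpiLCs to 1.87, 2.64 and 2.02 in LBRKO EpiLCs, without overlap (log2 change -1.09 ± 0.17 SE, adjusted p = 1.90e-06). Serpinb12, an inhibitor of trypsin-like proteases, went from 6.48, 5.5 and 4.96 (WT) to 3.75, 3.02 and 3.54 in TKO (log2 change -0.70 ± 0.18 SE, adjusted p = 0.00394) and 2.19, 2.65 and 2.54 in QKO (log2 change -1.16 ± 0.18 SE, adjusted p = 7.24e-07). Each mutant group lay below its WT libraries.

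Among the Serpinb3 genes, Serpinb3a had 2.03, 1.71 and 2.27 in WT EpiLCs, 1, 1.04 and 0.827 in TKO (log2 change -0.99 ± 0.26 SE, adjusted p = 0.00606) and 1.06, 0.825 and 0.687 in QKO (log2 change -1.15 ± 0.26 SE, adjusted p = 4.87e-04). Serpinb3c had 2.25, 1.73 and 1.75 (WT) and 0.761, 0.807 and 0.556 in QKO (log2 change -1.32 ± 0.24 SE, adjusted p = 2.63e-05). For both genes WT and QKO did not overlap. Serpinb3d went from 2.2, 1.48 and 1.34 (WT) to 0.516, 0.79 and 1.05 in LBRKO (log2 change -1.02 ± 0.27 SE, adjusted p = 0.00389) and 1.03, 0.811 and 0.908 in TKO (log2 change -0.78 ± 0.27 SE, adjusted p = 0.0389). The LBRKO call was lost without LBRKO EpiLC replicate 1 or WT EpiLC replicate 1. The TKO call was lost without any single TKO EpiLC library, without WT EpiLC replicate 1 or 2, without the filter and with libraries scaled to their mean gene.

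On chromosome 13, Serpinb9 had 4.7, 3.7 and 2.79 in WT EpiLCs, 2.16, 3.01 and 2.26 (LBRKO), 2.49, 2.34 and 2.74 (TKO) and 1.61, 1.63 and 1.97 (QKO). WT and LBRKO overlap for this gene, although the fall was called (log2 change -0.55 ± 0.17 SE, adjusted p = 0.0137), and QKO lay below all others (log2 change -1.03 ± 0.17 SE, adjusted p = 4.58e-06). Serpinb9f, a recent copy, fell from 2.45, 2.05 and 1.73 (WT) to 0.912, 0.778 and 1.24 in LBRKO (log2 change -1.03 ± 0.22 SE, adjusted p = 2.24e-04). Serpinb1a fell in QKO (log2 change -0.65 ± 0.20 SE, adjusted p = 0.00993), as did Serpinb6a (log2 change -0.25 ± 0.10 SE, adjusted p = 0.0424) and, on chromosome 1, Serpinb5 (log2 change -0.55 ± 0.18 SE, adjusted p = 0.0148). These last 3 calls were not stable, since each was lost when single libraries were left out: QKO EpiLC replicate 2 or WT EpiLC replicate 3 for Serpinb1a, QKO EpiLC replicate 3 or WT EpiLC replicate 1 for Serpinb5, and any QKO EpiLC library or WT EpiLC replicate 1 or 3 for Serpinb6a.

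Of the chromosome 12 genes, Serpina3m had 10.5, 12.3 and 11.9 in WT EpiLCs, 8.87, 8.64 and 9.02 (LBRKO), 8.29, 8.36 and 10.5 (TKO) and 8.35, 8.68 and 8.04 (QKO). The changes from WT were -0.38 ± 0.12, -0.36 ± 0.12 and -0.46 ± 0.12 (SE), all of them called. Serpina1a had 3.3, 2.18 and 1.93 in WT EpiLCs and 1.92, 1.46 and 2.25 (QKO), which overlap (log2 change -0.36 ± 0.20 SE, adjusted p = 0.159). Serpina6 was called in no EpiLC mutant, with changes of -0.29 ± 0.20, -0.12 ± 0.20 and -0.26 ± 0.20 (SE).

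In QKO EpiLCs all 51 members fell in deposited spike-in signal, against 55.3% of all genes, with a median of -1.34 (range -2.11 to -0.74) against -0.75 over all genes. With the factor applied directly to reads 43 fell, against 27.6% of all genes, with a median of -0.87 against -0.31 over all genes. On the deposited values, medians by locus were -1.78 on chromosome 1, -1.19 on chromosome 12 and -1.41 on chromosome 13. For Serpina3m the EpiLC QKO libraries held 13.3, 12.4 and 11.6 against 32.1, 26.1 and 38.2 in WT (log2 change -1.34 ± 0.24 SE, adjusted p = 3.41e-07). In LBRKO EpiLCs 12 members fell on this scale, against 3.41% of all genes, and in TKO EpiLCs 12 fell, against 9.28%. Without single libraries the LBRKO count ran from 1 (without WT EpiLC replicate 1) to 20 (without WT EpiLC replicate 2), with 3, 2 or 5 without LBRKO EpiLC replicate 1, 2 or 3 and 3 without WT EpiLC replicate 3. The TKO count was 23, 2 or 0 without TKO EpiLC replicate 1, 2 or 3, 0 without WT EpiLC replicate 1 or 3, and 22 without WT EpiLC replicate 2, so neither spike-in count in EpiLCs was settled by these libraries. With the factor applied directly to reads, 1 member was called lower in TKO, against 2.59% of all genes. In LBRKO 1 was called lower, against 1.36% of all genes, and 1 was called higher.

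Whether a genotype's effect differed between stages was tested by an interaction term on the relative scale. The QKO effect was weaker in EpiLCs for 45 of 51 members, where 24.8% of all genes had a higher interaction term, with a median difference of 0.97 (range 0.58 to 1.70) against 0.20 over all genes. The 6 members not called were Serpina1d, Serpina7, Serpinb1a, Serpinb1b, Serpinb9f and Serpinb9g. The medians were alike at the loci, with 1.02 on chromosome 1, 0.95 on chromosome 12 and 0.96 on chromosome 13. Serpina3f had the largest difference (log2 change 1.70 ± 0.32 SE, adjusted p = 1.54e-05), followed by Serpinb7 (log2 change 1.53 ± 0.20 SE, adjusted p = 1.82e-08). The members' median relative LAP2B level per bin in WT was 0.283 in naive cells and 0.194 in EpiLCs, against 0.180 and 0.145 for IGG. The part of this lower EpiLC start in the weaker effects was not tested.

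The TKO effect was weaker in EpiLCs for 6 members (5.77% of all genes), namely Serpina1b, Serpina3a, Serpina3f, Serpinb1c, Serpinb6e and Serpinb9d, with a median over all members of 0.49 against 0.11. This count was 3 without TKO EpiLC replicate 3 or WT naive replicate 2, 10 without TKO naive replicate 2, and 2 with libraries scaled to their mean gene. In these settings 3.22%, 3.67%, 5.50% and 1.63% of all genes were called higher. For the LBRKO effect limma called no member (10.2% of all genes called higher), with a median of 0.32 against 0.04 over all genes. At an unadjusted p under 0.05 there were 6 members (32.8% of all genes), and edgeR called 4 (11.5% of all genes).

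**Figure D4:**
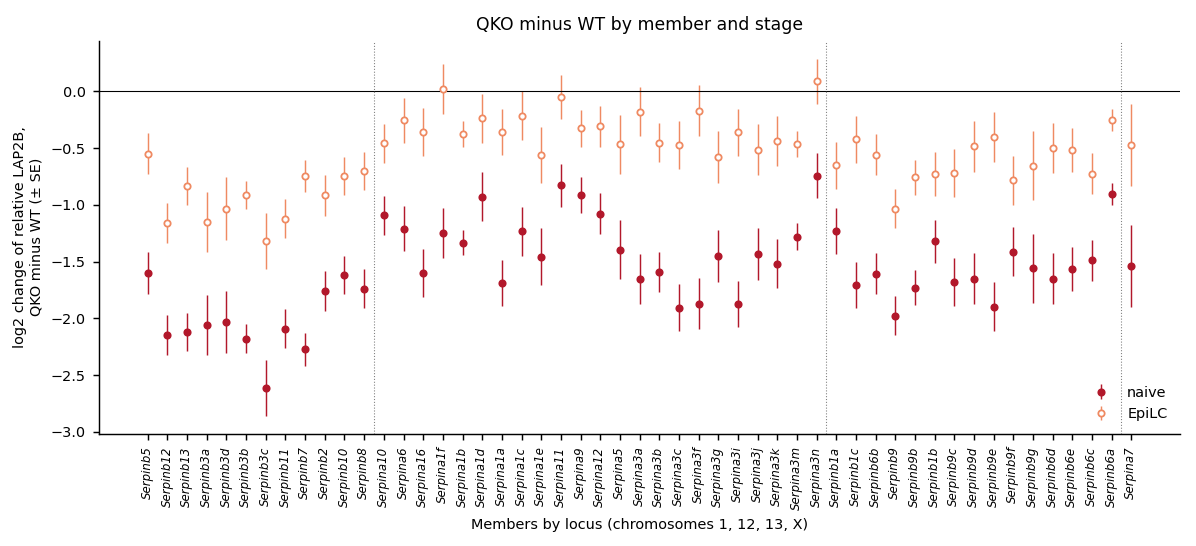
Log2 change of relative LAP2B signal in QKO against WT (± SE, n = 3 libraries per group) for each member by locus, in naive cells (filled) and EpiLCs (open). The naive changes run from -2.61 to -0.74 and the EpiLC changes from -1.32 to 0.09.

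WT cells themselves lost relative LAP2B over the serpins on the way from naive cells to EpiLCs, and this sets the EpiLC baseline. The study did not rely on LAP2B to define lamina-associated domains in EpiLCs, so EpiLC signal, and each comparison between stages, is read here as LAP2B occupancy and not as contact with the lamina. Of 51 members 33 fell, where 17.0% of all genes were called lower, with a median of -0.59 (range -1.71 to 0.02) against -0.06 over all genes. The count was 21 without WT naive replicate 2 and 16 with libraries scaled to their mean gene. LMNB1 fell at 20 members, against 7.12% of all genes, with a median of -0.41 (range -1.34 to 0.31), and this count was 4, 9 or 11 without WT EpiLC replicate 1, WT EpiLC replicate 3 or WT naive replicate 1, 10 with mean scaling and 3 without the filter on low values. IGG, the background, fell at 1 member, Serpina3i, against 0.396% of all genes, and its median over the members was -0.34 (range -0.98 to 0.12). That call was lost without WT naive replicate 1 or 3 or any WT EpiLC library. The IGG signal thus moved in the same direction as both proteins, with 20 members whose EpiLC libraries all lay below the naive ones (10.5% of all genes), and its part in the LAP2B and LMNB1 changes was not tested.

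Measured as a ratio to IGG, the members' median LAP2B was 1.65 in naive cells and 1.29 in EpiLCs, and that of LMNB1 was 1.77 and 1.44. By locus the LAP2B ratio was 1.85 and 1.65 on chromosome 1, 1.45 and 1.2 on chromosome 12, and 1.75 and 1.29 on chromosome 13. On chromosome 1 the LMNB1 ratio was 2.40 in naive cells and 2.37 in EpiLCs, on chromosome 12 it was 1.22 and 1.17, and on chromosome 13 it was 1.95 and 1.52. The ratios of Serpina7, which had few reads, were higher in EpiLCs, at 1.37 and 2.18 for LAP2B and 2.06 and 3.24 for LMNB1 in naive cells and EpiLCs. These ratios are given as values, since IGG libraries are not paired with the others and no test was run on them. The percentile of the median member among all genes, by ratio, was 81.1 and 76.2 for LAP2B and 78.5 and 72.4 for LMNB1. By level per bin, with no allowance for IGG, it was 71.7 and 41.8 for LAP2B, 73.2 and 55.6 for LMNB1, and 28.4 and 15.8 for IGG itself.

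The Serpina3 family made up 10 of the 14 genes called for LAP2B between the stages on chromosome 12, with 10 of 10 called (median -0.84) and 8 of 10 for LMNB1 (-0.73). Its IGG median was -0.52, with 1 of 10 called. Serpina3i had the largest LAP2B fall, from the naive values above to 1.92, 1.31 and 1.45 in EpiLCs (log2 change -1.71 ± 0.20 SE, adjusted p = 1.49e-08). Its LMNB1 went from 4.47, 3.76 and 4.73 to 1.53, 1.76 and 1.63 (log2 change -1.34 ± 0.18 SE, adjusted p = 1.39e-04) and its IGG from 3.08, 1.9 and 2.68 to 1.43, 0.977 and 1.31 (log2 change -0.98 ± 0.22 SE, adjusted p = 0.0344). The stages did not overlap for any of the 3 antibodies.

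For Serpinb9 a fall was called with both lamina proteins and not with IGG. LAP2B went from the naive values above to 4.7, 3.7 and 2.79 in EpiLCs (log2 change -1.04 ± 0.17 SE, adjusted p = 7.65e-06). LMNB1 went from 7.7, 6.7 and 7.03 to 3.96, 4.83 and 3.3 (log2 change -0.82 ± 0.16 SE, adjusted p = 0.00207), and IGG from 3.39, 3.27 and 2.83 to 2.94, 2.98 and 2.77 (log2 change -0.12 ± 0.17 SE, adjusted p = 0.81). All 3 Serpinb1 genes fell for LAP2B as well (median -0.81), and 1 of 4 Serpinb3 genes did (median -0.47).

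Among genes around the clusters, falls outnumbered rises in naive QKO and TKO, while LBRKO had many of both. Of 26 measured protein-coding genes within 500 kb outside the loci, 18 fell and 3 rose in naive QKO, with a median of -0.58 (range -1.95 to 1.03) against -1.60 for the serpins. In LBRKO 7 of these neighbours fell and 10 rose (median 0.18), and in TKO 14 fell and 2 rose (median -0.39). Over all protein-coding genes 24.1%, 27.8% and 37.1% were called lower, and 45.5%, 37.3% and 48.1% higher, for LBRKO, TKO and QKO. The 4 protein-coding genes that overlap the loci, in part or whole, without being members are Ppp4r4, Nqo2, Ripk1 and Wrnip1. They all fell in naive QKO, with changes of -1.05, -1.04, -0.63 and -0.87, and all 4 fell in TKO (median -0.47), while 1 fell in LBRKO (median -0.18). The difference between the serpins and these genes was not tested.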

How the data were processed

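CUT&RUN libraries for LAP2B, LMNB1 and IGG (36 libraries, 12 groups of 3) were analysed, and 2 H3K9me3 samples were not used. Per the labels and methods, the authors aligned 50-base paired reads to mm39 with Bowtie2 2.3.5.1, kept properly paired primary alignments (SAMtools 1.10) and removed duplicates and blacklisted regions. They deposited coverage signal per gene, made from RPKM in 1 kb bins (deepTools) and a yeast (sacCer3) spike-in factor. How bins were joined to genes is not described, and sums over a gene's bins were inferred from the values, which fit Serpina3c and Serpinb6b poorly. No mapping-quality filter is named, so reads of near-identical copies are assigned with uncertainty. Values came out as whole multiples of 1 read within 0.05 of a step for 100.0% of values, and edgeR 4.0.16 on these reads was an alternative.

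Relative signal was each value divided by its library's median gene. limma 3.58.1 (R 4.3.3) was fitted to log2(value + 0.1 of the table's median) over all libraries of an antibody, without the lowest 10% of genes, and two-sided tests were corrected over 70381 genes (Benjamini-Hochberg). Fold changes on this scale understate changes of low genes. Replicates were not stated to be separate cultures, so p-values measure the spread between libraries. Members and lists were chosen with earlier results of these data known. Values per library were given for the members with extreme WT levels at each locus, the 3 largest non-overlapping falls per contrast, and 9 well-known members. Percentiles of ratios used libraries of separate tables. Gene extents were GENCODE M39, while the methods name M30. The models were tested on simulated data. Alternatives were the scaling, pseudocount, filter, samples fitted, a replicate block, edgeR and leaving out each library. Same-numbered libraries did not deviate together (r from -0.25 to 0.18 over 90 pairs).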

Additional observations from a re-analysis of the deposited data

Results flagged for a closer look

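Some genotype effects on relative LAP2B signal over the serpins differed between naive cells and EpiLCs by an interaction term in limma. The lamin-loss (TKO) effect differed for 6 of 51 members, where 5.77% of all genes had a higher term, and the QKO effect for 45, where 24.8% did, in each case as a smaller fall in EpiLCs. Among the well-known members, the QKO effect in EpiLCs minus that in naive cells was 0.82 for Serpina3m, 1.33 for Serpina1a, 0.95 for Serpina6, 0.84 for Serpinb2, 1.05 for Serpinb5, 0.65 for Serpinb6a and 0.94 for Serpinb9, all on the log2 scale. WT signal was itself lower in EpiLCs at 33 members, and its part in these differences was not tested.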

How the results depend on the processing

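No called change of a member reversed under the alternatives run. Of the values of single members, 448 kept their side of the threshold and 20 lost it, and of the counts and percentiles 234 stayed within the limits used and 62 moved. Scaling to the mean gene gave 8 members for TKO in EpiLCs, 2 for the TKO effect (1.63% of all genes called higher), 16 for the WT stage change of LAP2B, 10 for LMNB1 and 0 for IGG. With that scaling the members' medians were -0.23 for TKO in EpiLCs and -0.38 for the WT stage change of LAP2B. The median over all genes was 0.13 in each. Without the filter on low values the stage change was called at 3 members for LMNB1 and 0 for IGG, and the LBRKO effect at 1. The LBRKO effect was called at 4 of 51 members with a larger pseudocount (1 median), at 2 with the compared groups alone and at 4 by edgeR, where 12.3%, 9.79% and 11.5% of all genes were called higher. EpiLC QKO minus TKO gave 7 with the compared groups alone and 1 by edgeR. On the spike-in scale, the factor applied to reads gave 13 members for naive LBRKO (9.28% of all genes called lower), 1 for EpiLC TKO (2.59%) and 2 for EpiLC LBRKO (1.36%). Of the 2, Serpinb11 was lower and Serpina3n, not called on the deposited values (log2 change 0.26), was higher (0.67), while the compared groups alone gave 0 for EpiLC TKO. Without members rich in recurring windows, an alternative chosen after seeing the data, the naive counts were 32, 34 and 39 and the EpiLC counts 22, 13 and 22 for LBRKO, TKO and QKO. Per kb of gene length instead of per bin, the WT percentile of the median member was 53.8 and 29.1 for LAP2B and 59.2 and 41.8 for LMNB1 in naive cells and EpiLCs. By the ratio to IGG, chosen after seeing the data, it was 81.1, 76.2, 78.5 and 72.4. The cause of these shifts was not tested.

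Leaving out 1 library at a time gave 6 to 11 members for TKO in EpiLCs, 0 to 4 for the LBRKO effect, 3 to 10 for the TKO effect and 21 to 35 for the WT stage change of LAP2B. It gave 4 to 23 for LMNB1 and 0 to 1 for IGG, and 70.2 to 73.6 for the naive LMNB1 percentile. On the spike-in scale the ranges were 14 to 25 for naive LBRKO, 1 to 20 for EpiLC LBRKO and 0 to 23 for EpiLC TKO. On the relative scale the naive counts stayed between 37 and 44 for LBRKO, 40 and 43 for TKO and at 51 for QKO. The replicate numbers did not pair the libraries, since in 0 of 30 pairs of groups did every same-numbered pair correlate above 0.1. A replicate block gave 1 member for the LBRKO effect and moved no other count of members beyond 1.5 times. For the stage changes the block ran across both stages.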

Other observations

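Relative LAP2B signal was also read over serpins of the other clades and over proteases that serpins inhibit. In naive QKO 6 of 11 serpins of clades C to I rose and 3 fell (median 0.35, where 48.1% of protein-coding genes were called higher), with changes of 1.84 for Serpinf1, which encodes the anti-angiogenic factor PEDF, and 1.67 for its neighbour Serpinf2, which encodes α2-antiplasmin, against -1.94 for Serpini2. Of 15 measured target proteases 12 rose and 1 fell (median 1.30). Changes were 2.77 for F2, which encodes prothrombin, and 2.38 for Elane, which encodes neutrophil elastase, against -1.42 for Casp1. In naive LBRKO 8 of these proteases rose and 1 fell (median 0.53), and in naive TKO 10 rose and none fell (median 0.56), where 45.5% and 37.3% of protein-coding genes were called higher. In QKO EpiLCs 6 rose and 1 fell (median 0.27), where 35.3% were called higher. The difference between these lists and the clade A and B serpins was not tested.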
